A study of Mus musculus with 4 samples.

Results

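Type I interferon stimulated genes were examined in the livers of male mice from the reciprocal crosses of AJ and B6. The set was fixed by name as Ifit1, Ifit2, Ifit3, Isg15, Irf7, Rsad2, Usp18, Oasl1, Oasl2 and Oas1a, and a gene was read from every probe set whose only gene symbol in the platform annotation was its own. Of these 10 genes, 9 had such a probe set, out of 18193 genes in all, and they were covered by 11 of 45037 probe sets. Rsad2 had 3 probe sets and the other genes had 1 each. For Isg15 the annotation lists a probe set shared with another gene, so no value is given for it.

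Total liver RNA of 9-month-old males was read on 4 Affymetrix arrays. The AB6F1 cross has AJ mothers and B6 fathers (n = 2), and the B6AF1 cross has B6 mothers and AJ fathers (n = 2). Mice of both were fed chow in an SPF facility and received no treatment. The labels give 2 biological replicates of each cross. Sample identifiers of the crosses do not interleave, so that handling and cross cannot be told apart. All 10 genes lie on autosomes, for which males of both crosses inherit a copy from each strain. Values are MAS5 signals on a linear scale, scaled by array to a common trimmed mean of 500. Median signals were 77.9 and 75.9 in AB6F1, against 72.8 and 67.2 in B6AF1. Alb, the plasma albumin gene of hepatocytes, was at 40788 and 38514 in AB6F1, against 40357 and 48625 in B6AF1.

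Type I interferons are secreted when cells sense foreign or misplaced nucleic acid. They bind a receptor made of Ifnar1 and Ifnar2, whose kinases activate a transcription factor complex that contains Stat2 and Irf9, and that complex binds the interferon-stimulated response element of target promoters. The products of the target genes bind viral RNA, degrade or modify it, tag proteins with a ubiquitin-like peptide, or amplify and end the response. In liver, hepatocytes, Kupffer cells and endothelial cells can all express them.

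Promoter windows of 250 bases before to 50 bases after each annotated start were taken from RefSeq (GRCm38.p6) and matched by symbol for 9 of the 10 genes; Usp18 was not among them. Ifit2 had 2 windows. The core of the response element was searched as GAAANNGAAA on both strands, overlapping matches counted. It was found in 5 of the 9 genes, Ifit1, Ifit3, Isg15, Rsad2 and Oas1a, against 3.99% of the 27025 genes in the table and 3.44% of its 32851 windows. The gamma-activated site, searched as TTCNNNGAA (the same on both strands), was found in 2 of the 9, Ifit2 and Oas1a, against 9.55% of all genes. In a further list of interferon stimulated genes, 12 of 32 genes with a window held the response element core. No match in a window says only that these letters are absent from it. The 170 bases that end at the base before the start are shown for the 5 genes with a match and for Oasl2, which had the largest difference between crosses among the genes above the filter and no match; they read 5′ to 3′ on the gene's strand, and capitals mark the matches to the core.

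Ifit1, chr19:34640719-34640888, plus strand: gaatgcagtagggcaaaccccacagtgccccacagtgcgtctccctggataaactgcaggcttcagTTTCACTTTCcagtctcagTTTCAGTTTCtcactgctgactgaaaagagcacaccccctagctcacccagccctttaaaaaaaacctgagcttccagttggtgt
Ifit3, chr19:34583359-34583528, plus strand: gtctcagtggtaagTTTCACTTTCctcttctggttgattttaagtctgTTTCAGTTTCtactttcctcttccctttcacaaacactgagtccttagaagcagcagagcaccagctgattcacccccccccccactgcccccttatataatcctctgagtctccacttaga
Isg15, chr4:156200819-156200988, minus strand: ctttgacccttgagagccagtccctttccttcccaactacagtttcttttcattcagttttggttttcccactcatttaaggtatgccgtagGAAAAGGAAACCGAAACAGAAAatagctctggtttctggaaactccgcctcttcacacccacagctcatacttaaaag
Rsad2, chr12:26456453-26456622, minus strand: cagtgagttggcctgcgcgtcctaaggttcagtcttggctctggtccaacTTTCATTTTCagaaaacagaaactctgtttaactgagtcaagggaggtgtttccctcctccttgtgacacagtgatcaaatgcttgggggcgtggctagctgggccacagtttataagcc
Oas1a, chr5:120907526-120907695, minus strand: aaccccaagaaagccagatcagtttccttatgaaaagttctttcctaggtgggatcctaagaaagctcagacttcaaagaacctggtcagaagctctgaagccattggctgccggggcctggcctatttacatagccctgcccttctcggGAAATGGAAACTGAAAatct
Oasl2, chr5:114896764-114896933, plus strand: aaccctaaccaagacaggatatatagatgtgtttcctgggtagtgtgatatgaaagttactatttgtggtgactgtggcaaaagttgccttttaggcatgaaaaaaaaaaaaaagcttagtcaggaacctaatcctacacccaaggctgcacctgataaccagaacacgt

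The matches began 104 and 85 bases before the start in Ifit1 and 156 and 122 bases before it in Ifit3, all read on the opposite strand. Isg15 held 3 overlapping matches that began 78, 72 and 66 bases before the start. The single match of Rsad2, also read on the opposite strand, began 120 bases before the start. The 2 overlapping matches of Oas1a began 20 and 14 bases before its start and, like those of Isg15, were on the gene's strand.

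Every gene of the set that could be read had a higher mean log2 signal in AB6F1 than in B6AF1, and none passed the test across all genes. The log2 differences (AB6F1 minus B6AF1) ran from 0.27 for Rsad2 to 1.10 for Oasl2 among the 8 genes above the filter, with a median of 0.59 over the 9 genes, against 0.04 over all 18193 genes. Differences above 0 were found for 54.1% of all genes and for 53.5% of those above the filter. Both AB6F1 arrays lay above both B6AF1 arrays for 7 of the 9 genes, Ifit3 and Oasl1 being the exceptions, against 21.7% of all genes and 22.5% of those above the filter. Genes dimmer on average than the median probe set, at a signal of 60.9, were left out of the test; 8 of the 9 genes passed this filter and Ifit2 did not. Among the 11749 genes tested with limma, 0.213% passed at an adjusted p under 0.05, and of the 8 interferon stimulated genes 0 passed, with limma adjusted p from 0.384 to 0.699. At an unadjusted p under 0.05 there were 4 of the 8, Ifit1, Irf7, Usp18 and Oasl2, all higher in AB6F1, against 5.84% of all genes tested that were higher and 9.72% in either direction. Because the tissue is a bulk sample, more cells of a type and more RNA per cell cannot be told apart. With 2 arrays against 2, an exact permutation test of any single gene cannot give a two-sided p below 0.333.

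**Figure D1:**
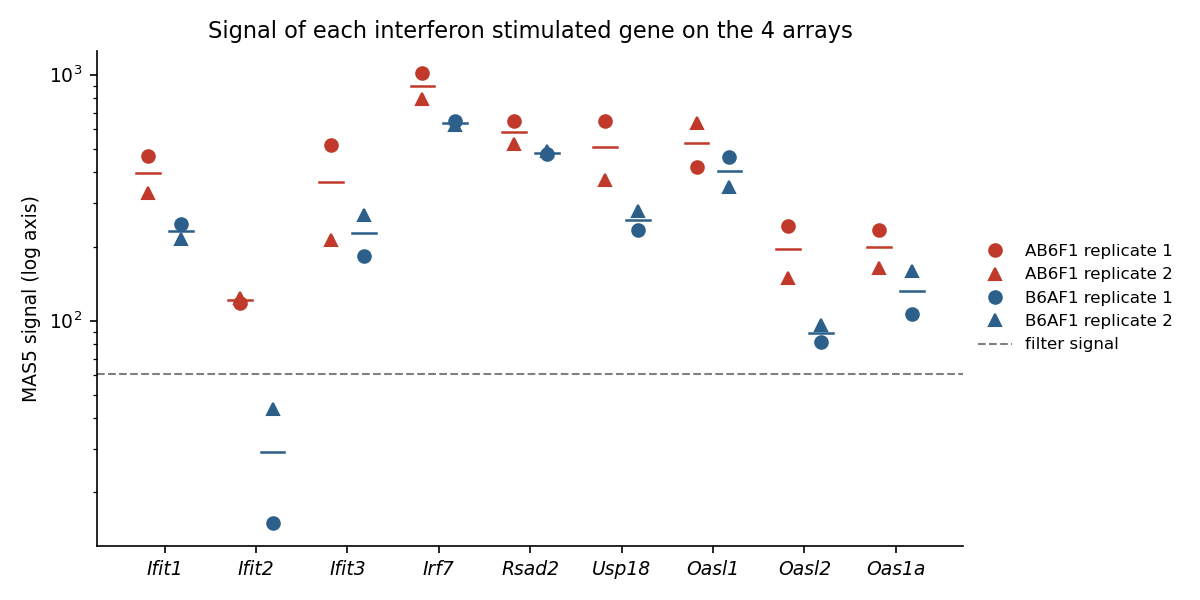
MAS5 signal (log axis) of the 9 readable genes on each array, AB6F1 left and B6AF1 right within a gene, with bars at the arithmetic means of 2 arrays and the filter signal of 60.9 dashed. AB6F1 replicate 1 is the highest array for 7 genes; heights are not comparable between genes, since each is a different probe set.

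The Ifit genes encode tetratricopeptide-repeat proteins that bind viral RNA, with Ifit1 recognising RNA whose cap lacks host methylation. Ifit2 and Ifit3 are neighbours on chromosome 19, where Ifit1 also lies. Ifit1 had signals of 466.7 and 329.3 in AB6F1, against 247.9 and 214.7 in B6AF1, so that the crosses did not overlap. Its log2 difference was 0.76 ± 0.25 (SE; limma adjusted p = 0.409), with a 95% interval from 0.17 to 1.36, and 6.03% of all genes tested had a larger one. Ifit3 had 518.5 and 213.5 in AB6F1, against 183.2 and 268.9 in B6AF1. The crosses overlapped for Ifit3, since AB6F1 replicate 2 lay below B6AF1 replicate 2. Its log2 difference was 0.58 ± 0.43 (SE; limma adjusted p = 0.699), and without AB6F1 replicate 1 it was -0.06.

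Ifit2, which also has a role in cell death, was the single gene of the set below the filter. It had 117.9 and 123.5 in AB6F1, against 15.0 and 43.6 in B6AF1. The AB6F1 arrays were close together, and both B6AF1 arrays lay below the filter signal of 60.9. The deposited signals of Ifit2 differed by 2.24 on the log2 scale, a size set by these dim B6AF1 signals: with B6AF1 replicate 1 left out it was 1.47, and with B6AF1 replicate 2 left out 3.01. The limma adjusted p was 0.51 when the filter was dropped.

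Irf7, the transcription factor that drives the later wave of interferon alpha genes, had 1013 and 792.2 in AB6F1, against 648.8 and 625.1 in B6AF1. The crosses did not overlap, and the B6AF1 arrays were nearly level. The log2 difference of Irf7 was 0.49 ± 0.17 (SE; limma adjusted p = 0.442), with a 95% interval from 0.08 to 0.91, and without AB6F1 replicate 1 it was 0.31. Usp18, a protease that removes Isg15 from proteins and also binds the receptor to end signalling, had 644.6 and 373.3 in AB6F1, against 232.7 and 278.9 in B6AF1. Its crosses did not overlap either, and its AB6F1 arrays were unlike. The log2 difference of Usp18 was 0.95 ± 0.29 (SE; limma adjusted p = 0.384), with a 95% interval from 0.26 to 1.64, and 3.69% of all genes tested had a larger one. Without AB6F1 replicate 2 it was 1.34 with a limma adjusted p of 0.042, in a fit of 3 arrays where the lone AB6F1 array is assumed to vary as the others do; without AB6F1 replicate 1 it was 0.55.

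Rsad2 encodes viperin, an antiviral radical SAM enzyme of the endoplasmic reticulum, and stands next to Cmpk2 on chromosome 12. Its brightest probe set had 648.9 and 521.6 in AB6F1, against 473.5 and 489.2 in B6AF1. The crosses did not overlap on it, but the log2 difference was 0.27 ± 0.18 (SE; limma adjusted p = 0.667), with a 95% interval from -0.16 to 0.71, and 22.9% of all genes tested had a larger one; without AB6F1 replicate 1 it was 0.12. The second probe set of Rsad2 had 296.3 and 223.3 in AB6F1, against 187.9 and 273.7 in B6AF1, a log2 difference of 0.18. The third had 140.2 and 191.2 in AB6F1, against 147.1 and 132.7 in B6AF1, a log2 difference of 0.23. The crosses overlapped on both of these probe sets, which read the same RNA and are no replicates.

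The oligoadenylate synthetase family is represented by Oas1a, which makes the oligoadenylates that activate an RNA-degrading enzyme, by Oasl1, an inactive relative that in mouse limits translation of Irf7, and by Oasl2. All 3 lie on chromosome 5, with Oasl1 and Oasl2 as neighbours. Oasl2 had 241.4 and 149.5 in AB6F1, against 81.7 and 95.6 in B6AF1, without overlap. Its log2 difference was 1.10 ± 0.38 (SE; limma adjusted p = 0.431), with a 95% interval from 0.20 to 2.01, and 2.62% of all genes tested had a larger one. Oas1a, which has close paralogs that its probe set may also read, had 232.4 and 164.2 in AB6F1, against 106.4 and 158.5 in B6AF1. The crosses were separated by a small gap, and the log2 difference of Oas1a was 0.59 ± 0.35 (SE; limma adjusted p = 0.636), or 0.30 without B6AF1 replicate 1. Oasl1 had 422.2 and 635.8 in AB6F1, against 462.0 and 348.1 in B6AF1. It overlapped between the crosses and had its highest signal in AB6F1 replicate 2, unlike its neighbour Oasl2; its log2 difference was 0.37 ± 0.26 (SE; limma adjusted p = 0.68), and without AB6F1 replicate 2 it was 0.07.

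**Figure D2:**
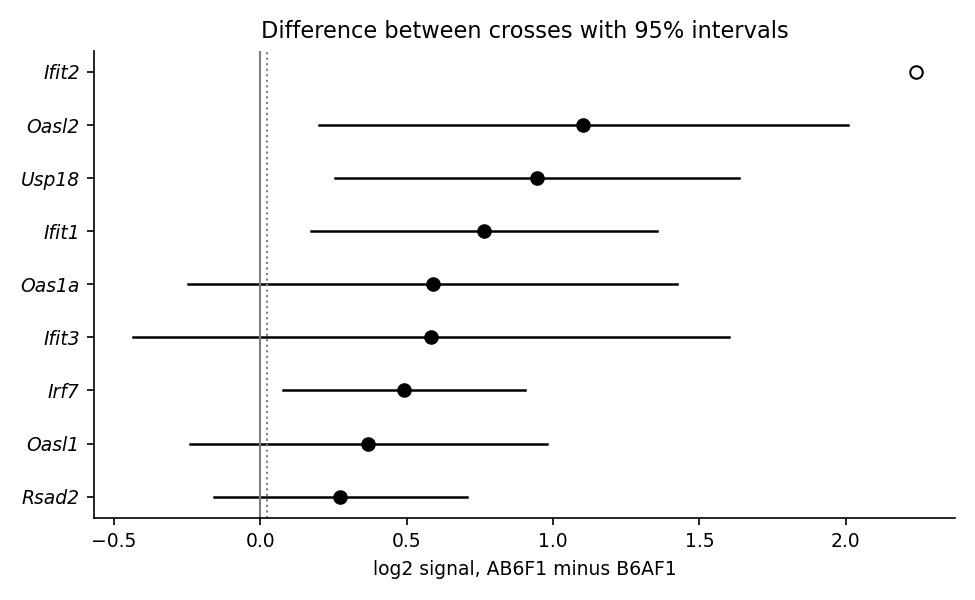
Difference in log2 signal, AB6F1 minus B6AF1, for each readable gene, with 95% intervals from limma as bars; the open point is Ifit2, which was below the filter and has no interval, and the dotted line is the median of the 11749 genes tested, 0.02. All points lie right of 0, and the intervals of Ifit1, Irf7, Usp18 and Oasl2 do not reach it before adjustment for the number of genes.

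Most of the genes had the same highest array. AB6F1 replicate 1 was the highest array for 7 of the 9 genes, against 30.5% of all genes, and AB6F1 replicate 2 was the highest for the other 2, Ifit2 and Oasl1. The lowest array was B6AF1 replicate 1 for 6 genes and B6AF1 replicate 2 for 3. With each gene centred over the arrays, the 9 genes averaged 0.62 and 0.20 in AB6F1, against -0.55 and -0.27 in B6AF1 (log2 signal). Without AB6F1 replicate 1, 8 of the 9 genes had a difference above 0 and the median log2 difference was 0.51, whereas without AB6F1 replicate 2 it was 1.02. Leaving out B6AF1 replicate 1, the median of the 9 genes was 0.57, and without B6AF1 replicate 2 it was 0.86.

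**Figure D3:**
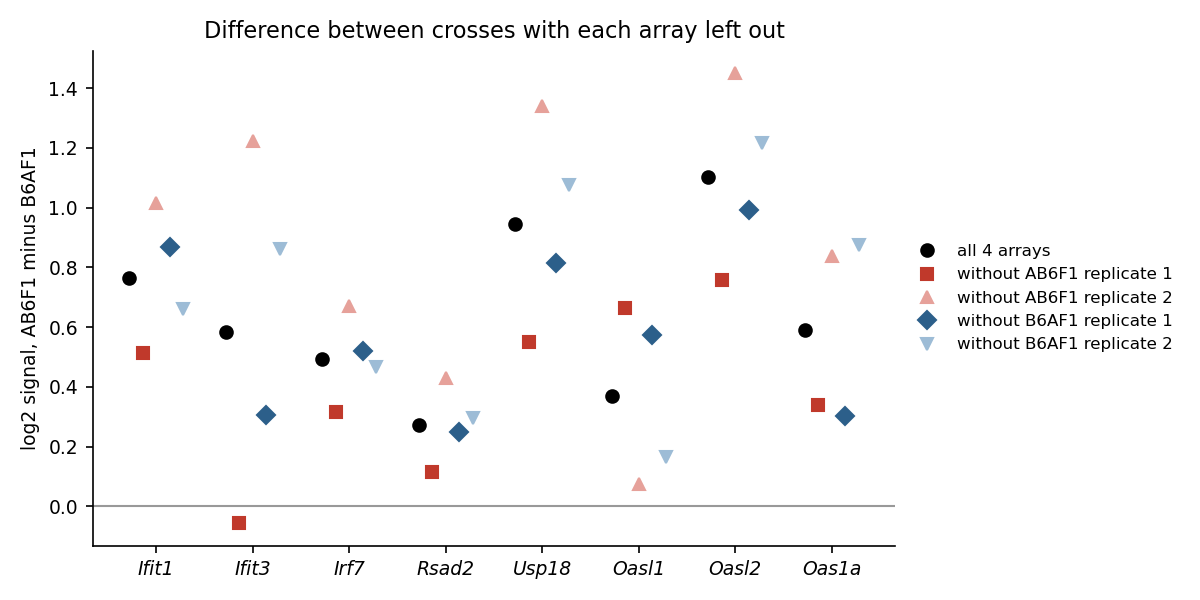
Log2 difference, AB6F1 minus B6AF1, of the 8 genes above the filter with all 4 arrays and with each array left out. The values without AB6F1 replicate 1 are the lowest for 6 genes, and that of Ifit3 is -0.06; for Oasl1 the value without AB6F1 replicate 2 is the lowest, at 0.07.

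The upstream genes of the pathway were compared next. Interferon ligands were dim: 2 of 10 genes with a probe set passed the filter, and 3 of the 10 had differences above 0, against 54.1% of all genes. Ifna2, an interferon alpha gene, had 307.4 and 317.0 in AB6F1, against 193.1 and 158.9 in B6AF1, differing by 0.83 ± 0.24 on the log2 scale (SE; limma adjusted p = 0.365). Ifna1, another alpha gene, overlapped between the crosses and was lowest in AB6F1 replicate 1, at a signal of 17.5. Its mean log2 signal in AB6F1 lay below the filter, and no size is given for its difference. That difference was below 0 with all 4 arrays (limma adjusted p = 0.693) and above 0 without AB6F1 replicate 1. Interferon alpha genes are near-identical copies, so that a probe set named for one may read others. The receptor subunits stood near 0. Ifnar1 was at 0.04 ± 0.17 with a 95% interval from -0.36 to 0.43, and Ifnar2 was at -0.11 ± 0.12 with a 95% interval from -0.39 to 0.17 (log2 differences, SE). Ifnar1 was below 0 after quantile normalization (-0.01), after median centring (-0.10), as the mean of its probe sets (-0.08) and without B6AF1 replicate 1 (-0.10), and Ifnar2 was at 0.28 as the mean of its probe sets.

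Receptors and relay genes together had a median log2 difference of 0.09 over 11 genes, 9 of them above 0; over the settings run it lay between -0.05 (after median centring) and 0.31 (without AB6F1 replicate 2). Irf9, the DNA-binding subunit of the activated complex and itself an interferon stimulated gene, had 1067 and 719.2 in AB6F1, against 567.3 and 492.2 in B6AF1, without overlap. Its log2 difference was 0.73 ± 0.22 (SE; limma adjusted p = 0.384). Without AB6F1 replicate 2 Irf9 was at 1.01, and without AB6F1 replicate 1 at 0.44. Stat2, which binds Irf9, was at 0.28 ± 0.19, or 0.14 without B6AF1 replicate 2, and the gamma receptor chain Ifngr1 was at 0.47 ± 0.19 (log2 differences, SE). Among the 18 genes of nucleic acid sensing and interferon induction the median was 0.26 (0.12 after median centring), and 15 had differences above 0. Sting1, the adaptor of cytosolic DNA sensing, had 161.0 and 166.4 in AB6F1, against 31.8 and 51.3 in B6AF1 (limma adjusted p = 0.278). Sting1 passed the filter only through its AB6F1 arrays, and no size is given for its difference. Zbp1, a sensor of left-handed nucleic acid, was at 1.46 ± 0.45, or 0.95 without AB6F1 replicate 1 (log2 differences, SE). Tlr3, the receptor for double-stranded RNA, was at 1.04 ± 0.33 (log2, SE; limma adjusted p = 0.396) on a less specific probe set (_s_at). With such probe sets left out Tlr3 was at 0.51 ± 0.42 (log2, SE; limma adjusted p = 0.736), and as the mean of its probe sets at 0.78. Negative regulators had a median of 0.04 over 8 genes, 4 of them above 0, which lay between -0.09 (after median centring) and 0.25 (with the mean of probe sets), and Trim24 had the largest difference among those above the filter, 0.60 ± 0.19 (log2, SE). None of these lists held a gene that passed limma across all genes. At an unadjusted p under 0.05 there were 1 of 2 ligands tested and 2 of 11 receptor or relay genes. There were also 4 of 17 sensing genes and 1 of 7 negative regulators, and all of these were higher in AB6F1. Sting1 is among the 4. It entered the test only through its AB6F1 arrays, so its unadjusted p under 0.05 is no evidence of a difference. Among all genes tested 5.84% were higher at that threshold and 9.72% differed in either direction. Differences above 0 were found for 54.1% of all genes.

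A wider list of type I interferon stimulated genes, which does not contain the 10 genes but shares Stat2, Irf9, Zbp1 and RNA sensors with the preceding lists, had 42 genes with a probe set. Of these, 35 had differences above 0, both AB6F1 arrays lay above both B6AF1 arrays for 20 and below both for 1, and the median log2 difference was 0.30. Over all genes 54.1% had differences above 0 and 21.7% had both AB6F1 arrays above both B6AF1 arrays. Of the 39 above the filter 0 passed limma across all genes, with 8 higher and 1 lower at an unadjusted p under 0.05. Among all genes tested 5.84% were higher at that threshold and 9.72% differed in either direction. Ifi27l2a, a small membrane protein gene, had 695.7 and 367.8 in AB6F1, against 176.2 and 228.5 in B6AF1, differing by 1.33 ± 0.33 on the log2 scale (SE; limma adjusted p = 0.285). Without AB6F1 replicate 2 Ifi27l2a was at 1.79, and without AB6F1 replicate 1 at 0.87. Of the enzymes that attach Isg15 to proteins, the activating enzyme gene Uba7 was at 0.50 ± 0.34 (0.09 without B6AF1 replicate 2) and the ligase gene Herc6 at 0.39 ± 0.27 (0.04 without AB6F1 replicate 1), and both overlapped between crosses (log2 differences, SE). The conjugating enzyme gene Ube2l6, named after its values were seen, had 556.6 and 588.6 in AB6F1, against 486.8 and 502.1 in B6AF1, without overlap, at 0.21 ± 0.16 (log2, SE; limma adjusted p = 0.713). Over the 4 readable genes of Isg15 conjugation, Usp18 included, the median was 0.45, against 0.23 when AB6F1 replicate 1 was left out and 0.77 when AB6F1 replicate 2 was.

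**Figure D4:**
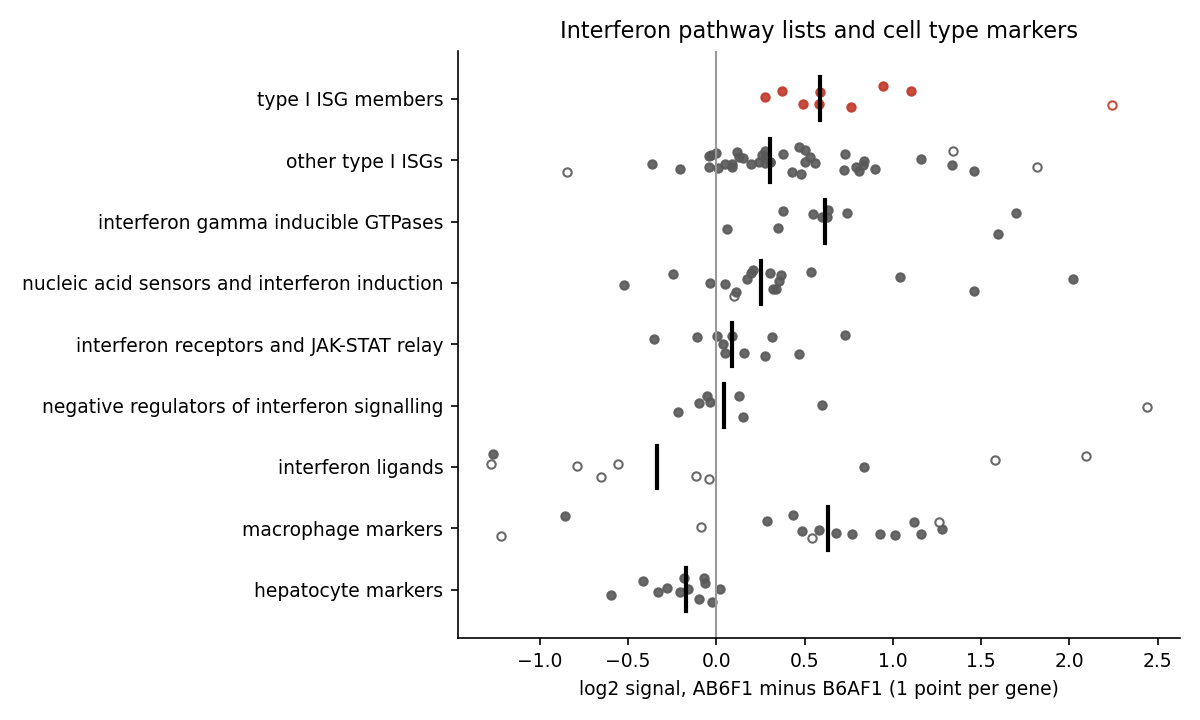
Log2 difference, AB6F1 minus B6AF1, of each gene with a probe set, by list; filled points passed the filter, open points did not, and black bars are list medians. The 9 type I interferon stimulated genes (red) have a median of 0.59, the wider list 0.30, the GTPases 0.61, receptors and relay genes 0.09, macrophage markers 0.63 and hepatocyte markers -0.17.

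The GTPases induced mainly by interferon gamma had differences of similar size. All 10 with a probe set had differences above 0, against 54.1% of all genes, and 9 of them had both AB6F1 arrays above both B6AF1 arrays, against 21.7% of all genes; their median log2 difference was 0.61. No test of the difference between this list and the 9 genes was made. Gbp2b had 399.6 and 243.1 in AB6F1, against 144.7 and 63.6 in B6AF1, differing by 1.70 ± 0.46 on the log2 scale (SE; limma adjusted p = 0.338), or 1.11 without B6AF1 replicate 2. Gbp2 was at 1.60 ± 0.26 (limma adjusted p = 0.119). Gbp7 was at 0.74 ± 0.35 (limma adjusted p = 0.545), without AB6F1 replicate 2 at 1.26, and without AB6F1 replicate 1 at 0.22. These encode guanylate-binding proteins, which act against intracellular pathogens. The median of the GTPases was 0.22 with AB6F1 replicate 1 left out and 1.003 with AB6F1 replicate 2 left out, and that of the wider list was 0.18 and 0.49 in the same settings.

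Most macrophage markers had higher signals in AB6F1, and none of the 12 tested passed limma across all genes. Of 16 macrophage markers, 13 had differences above 0, against 54.1% of all genes, with a median of 0.63. Their summed signal, in which bright genes weigh most, was 18031 and 11465 in AB6F1, against 7859 and 10736 in B6AF1, ranges that do not overlap. Taken singly, 9 markers had both AB6F1 arrays above both B6AF1 arrays, against 21.7% of all genes, and 2 had both below. The crosses overlapped for 5, among them Clec4f, Vsig4 and Cd5l. None of the markers was listed at 0. Centred over the arrays, they averaged 0.47 and 0.05 in AB6F1, against -0.45 and -0.08 in B6AF1 (log2 signal). The interferon stimulated genes had this order of arrays, but so did endothelial markers and negative regulators. The GTPases and the wider list had the B6AF1 arrays in the other order. Lyz2, the myeloid lysozyme, was at 1.28 ± 0.26, C1qb, a complement chain made by macrophages, at 1.12 ± 0.27, and Ccr2, the monocyte chemokine receptor, at 1.16 ± 0.40 (log2 differences, SE). Their limma adjusted p with all arrays was 0.199 for Lyz2, 0.278 for C1qb and 0.431 for Ccr2. C1qb was read from a less specific probe set (_x_at). With such probe sets left out C1qb was at 0.75 ± 0.38 (log2, SE; limma adjusted p = 0.574), and as the mean of its probe sets at 0.96. Without AB6F1 replicate 2 Lyz2 was at 1.63 and C1qb at 1.56, whereas without AB6F1 replicate 1 Lyz2 was at 0.93 and C1qb at 0.68. Ccr2 was at 0.72 without B6AF1 replicate 2. Among all genes tested, 5.84% were higher at an unadjusted p under 0.05 and 9.72% differed in either direction. Of the 12 markers tested, 8 were higher and 1 was lower at that threshold. The lower one, the scavenger receptor gene Cd163, had 194.9 and 219.3 in AB6F1, against 359.1 and 389.2 in B6AF1, at -0.85 ± 0.22 (log2, SE; limma adjusted p = 0.299). Timd4, a marker of resident macrophages that was below the filter, had 41.5 and 34.0 in AB6F1, against 66.2 and 115.9 in B6AF1; both were named after their values were seen. The part of macrophage markers in the differences of the interferon stimulated genes was not tested.

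Differences above 0 were found for 54.1% of all genes, the share to set beside the counts of markers that follow. Of 9 neutrophil markers, 5 were above 0 and 4 were below. The summed signal of the 9 was 1725.0 and 781.4 in AB6F1, against 865.5 and 487.9 in B6AF1, so that the crosses overlapped. Among the 4 were Mpo, at -0.28 ± 0.44, and Ngp, at -0.11 ± 0.43 (log2 differences, SE), both named after their values were seen. The myeloid calcium-binding protein gene S100a8 had 601.9 and 120.7 in AB6F1, against 76.8 and 23.0 in B6AF1, so that AB6F1 replicate 1 stood apart. Its partner S100a9 had 404.8 and 97.9 in AB6F1, against 69.8 and 40.6 in B6AF1. Both S100a8 and S100a9 passed the filter only through their AB6F1 arrays, and no size is given for their differences. With all 4 arrays the limma adjusted p was 0.408 for S100a8 and 0.463 for S100a9. Lymphocyte and NK markers were above 0 in 7 of 12 genes, with summed signals of 861.4 and 609.9 in AB6F1, against 712.3 and 652.6 in B6AF1. Plasmacytoid dendritic cells are a major source of interferon alpha; 6 of 8 of their markers were above 0, but 4 of the 8, among them the defining Siglech, were below the filter. Siglech, named after its values were seen, had 12.7 and 23.0 in AB6F1, against 77.6 and 5.1 in B6AF1. Ly6d, listed with these markers and also expressed by other cells, had 320.6 and 899.5 in AB6F1, against 75.1 and 72.9 in B6AF1, and was highest in AB6F1 replicate 2. It differed by 2.86 ± 0.47 on the log2 scale (SE; limma adjusted p = 0.119). Without AB6F1 replicate 1 Ly6d was at 3.60, and without AB6F1 replicate 2 at 2.12. It passed limma after median centring (2.72, adjusted p 0.0429) and with the replicate block (adjusted p 0.0159). Endothelial markers were above 0 in 7 of 12 genes and below 0 in 5, with a median of 0.20. Their summed signals were 4912 and 4453 in AB6F1, against 3813 and 5058 in B6AF1, and overlapped. Lyve1, a sinusoidal endothelial receptor, had the largest difference of the 12, at 1.18 ± 0.39 (log2, SE; limma adjusted p = 0.41). It was at 0.97 as the mean of its probe sets and at 0.82 without AB6F1 replicate 1. Hepatocyte markers were below 0 in 11 of 12 genes with a median of -0.17, which lay between -0.31 (after median centring) and -0.02 (without B6AF1 replicate 2). Tat, the tyrosine aminotransferase gene of hepatocytes, had 9911 and 19078 in AB6F1, against 21431 and 20151 in B6AF1. It was at -0.60 ± 0.28 (log2, SE; limma adjusted p = 0.544), or -1.07 without AB6F1 replicate 2 and -0.12 without AB6F1 replicate 1. None of these markers was listed at 0, and their part in the result was not tested.

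**Figure D5:**
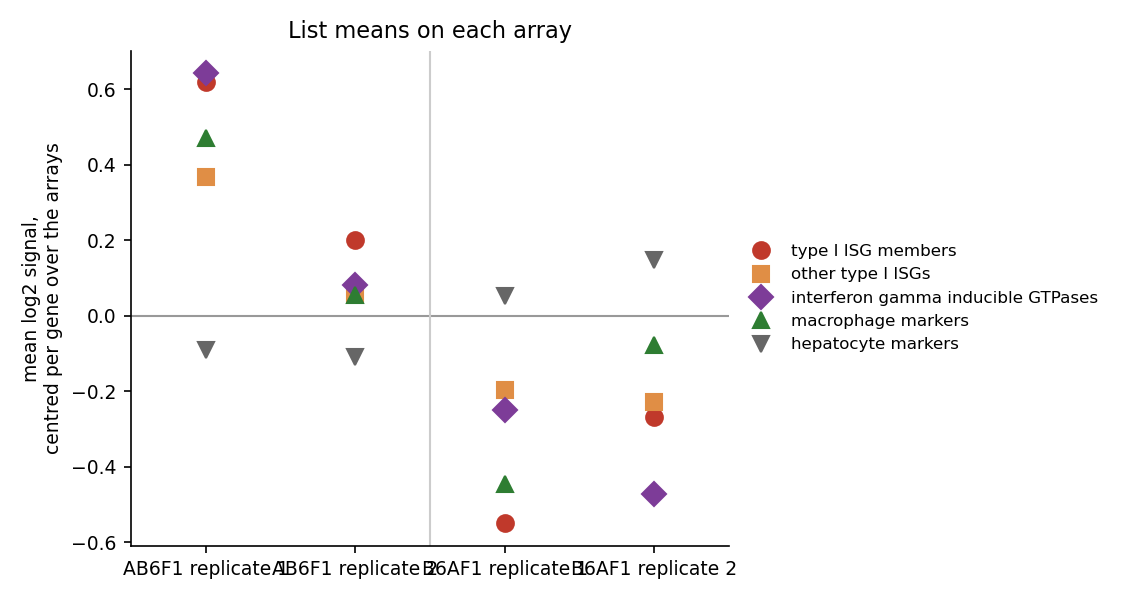
Mean log2 signal of each list on the 4 arrays after centring each gene on its own mean. AB6F1 replicate 1 is the highest array for the 9 interferon stimulated genes (0.62), the wider list, the GTPases (0.64) and macrophage markers (0.47), and hepatocyte markers lie below 0 on both AB6F1 arrays.

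Genes outside the set were ranked by how closely their log2 signal, centred over the 4 arrays, followed the mean of the 8 interferon stimulated genes above the filter. The nearest by root mean square distance on the log2 scale were Trim80 (0.02), Tc2n (0.02), Gpr107 (0.03), Tgfbi (0.03) and Mmp14 (0.03). Tgfbi encodes an extracellular matrix protein and had 1795 and 1335 in AB6F1, against 918.6 and 1050 in B6AF1. Mmp14 encodes a membrane-bound matrix metalloproteinase and had 1444 and 972.5 in AB6F1, against 735.0 and 788.5 in B6AF1. None of the 5 passed limma across all genes with all 4 arrays (adjusted p from 0.338 to 0.60). Because they were picked for following the set on these same arrays, their differences are no separate evidence. Without AB6F1 replicate 2 Tgfbi was at 0.87 and Mmp14 at 0.92 (log2 differences). Without AB6F1 replicate 1 the 5 genes were at log2 differences of 0.35 to 0.45, with Tgfbi at 0.44 and Mmp14 at 0.35. Of the genes in the set, Irf7 lay nearest to the mean, at 0.11, and Oasl1 farthest, at 0.44.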

How the data were processed

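Per the submitters' processing notes, the authors made the deposited values with MAS5, as a linear intensity (signal) per probe set; no version is given, and the aligner of probes to genes and any genome build are not given in the sources used here. From the values, each array was scaled to a mean of 500 after dropping the lowest and highest 2% of probe sets, which hides a change shared by all transcripts. Of 45101 probe sets, 64 controls were left out; 34945 had 1 gene symbol, 932 several and 9160 none. Symbols were updated by gene identifier through RefSeq (GRCm38.p6) for 34741.

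The brightest probe set by mean log2 signal stood for a gene. Differences of log2 signal, with no pseudocount, were tested in 11749 genes by limma 3.58.1 in R 4.3.3 (lmFit, eBayes with intensity trend, two-sided, Benjamini-Hochberg over all genes tested). SE and 95% intervals are limma's moderated ones; the prior gave 4.97 degrees of freedom beside 2 residual ones. The fit was tested on simulated data. No detection calls were used, and precision is limited by the number of arrays.

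The genes and lists were chosen with earlier results of these data known. Named outside the set were genes of each list with the largest absolute difference above the filter (up to 3 by the rule; the number taken from each list, 0 to 3, was set after the values were seen), the receptor subunits, Stat2, Irf9, and the 5 nearest genes. Some genes are not reported here. Alternatives were quantile normalization, median centring, 16 added to the signal, no filter or one at the 75th percentile, leaving out the less specific probe sets (_x_at and _s_at), the mean of probe sets, eBayes untrended or robust, the replicate number as a block, and each array left out.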

Additional observations from a re-analysis of the deposited data

How the results depend on the processing

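Over all settings run, 108 of 109 values of the 9 genes stayed above 0. Many of these values could not change, since the filter, the eBayes options and the block leave a log2 difference as it was. For a gene with 1 probe set, the mean of probe sets does so too. The exception among the 109 was Ifit3 without AB6F1 replicate 1, at -0.056 (1.22 without AB6F1 replicate 2). No member passed limma under any setting except Usp18 without AB6F1 replicate 2, so that leaving out an array gave 0 to 1 calls. With 1 array left out, the median log2 difference of the 9 genes ran from 0.51 without AB6F1 replicate 1 to 1.02 without AB6F1 replicate 2. Between the same settings that of the wider list ran from 0.18 to 0.49 and that of the GTPases from 0.22 to 1.003. Other settings moved these medians by less than the spread between replicates; the lowest were those after median centring, 0.45, 0.17 and 0.48, a setting that moved the median of all genes by -0.14. The count of all genes past limma, 25, was 49 after median centring, 9 with the mean of probe sets, 62 with the replicate block, and 0 without the intensity trend, where 1044 genes had an unadjusted p under 0.05. Leaving out an array gave 0 (without B6AF1 replicate 1; 820 at an unadjusted p under 0.05), 1 (without B6AF1 replicate 2), 69 (without AB6F1 replicate 1) and 246 genes (without AB6F1 replicate 2). The cause of these moves was not tested. Outside the set, Ifna1 was at 0.14 without AB6F1 replicate 1, Ifnar2 at 0.28 with the mean of probe sets, and Ifnar1 at -0.0077, -0.10, -0.0782 and -0.10 after quantile normalization, after median centring, with the mean of probe sets and without B6AF1 replicate 1. Arrays of the same replicate number did not deviate together across genes (r = -0.0272), a single correlation that cannot show whether the mice were paired. With the block, 0 of the 8 genes tested passed. With the filter at the 75th percentile 3 of the genes were tested. Alternatives for the other lists were added after seeing the data.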
